A study of Mus musculus with 29 samples.

Results

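The Hox genes of the mouse are 39 genes in 4 clusters, and each of the 39 had a row among the 55401 rows of the count tables. They were taken by symbol (Hox, the cluster letter a, b, c or d, and a number), and no measured value entered this rule. Earlier results of these data were known when the rule was set. Cluster A holds 11 of them, cluster B 10, cluster C 9 and cluster D 9. The libraries came from peribiliary mesenchymal cells, the connective tissue cells that surround the common bile duct, sorted from single mice at about 1000 cells per animal and made into full-length cDNA with a Smartseq3 protocol.

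The 29 libraries fell into 9 groups, and every animal carried a Cre-dependent tdTomato reporter at Rosa26 together with an inducible Cre. Cre came from Gli1:CreERT2 in 3 animals taken 4 days after bile duct ligation (BDL), which blocks bile flow and injures the duct, and in 3 uninjured animals. In the other 23 animals Cre came from Pdgfra:CreERT2. Of these, 4 were labelled SmoFF (Smo is the transducer of Hedgehog signalling), 3 SmoM2 (an activated Smo), 3 Ctnnb1FF (beta-catenin), 2 Gli2FF, 2 Gli3FF and 4 Gli2FFGli3FF (Gli2 and Gli3 are transcription factors at the end of the Hedgehog pathway), and 5 were labelled wild type. The samples are thus limited to cells in which the Gli1 or the Pdgfra driver was active, and the ages, sexes and induction schedules were not given in the sources used here. Each Pdgfra genotype had a count table of its own and the Gli1 animals shared 1, so genotype and table cannot be told apart. Replicate 5 of wild type carries SmoFF in its free-text description, and its Smo level lay within the range of the other wild type libraries.

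Total counts ran between 15021796 and 38301189 per library, and a single ribosomal RNA locus took between 2.37% and 50.03% of them. Levels below are CPM (counts scaled to a fixed library size) after TMM scaling of all 29 libraries together. The targeted transcripts were lower than wild type in the groups labelled for them: Smo had 6.97 to 9.58 CPM in SmoFF and 23.8 to 38.2 CPM in wild type, Gli3 had 3.09 to 8.36 CPM in Gli2FFGli3FF and 32.4 to 47.3 CPM in wild type, and Ctnnb1 had 42.8 to 53.1 CPM in Ctnnb1FF and 54.1 to 67.6 CPM in wild type. Gli2 was less separated, with 7.15 to 12.9 CPM in Gli2FF and 13.1 to 22.1 CPM in wild type. For beta-catenin and the Gli factors this was not specific to the label: Ctnnb1 had 42.3 to 47.8 CPM in Gli3FF, and Gli3 averaged 14.3 CPM in Ctnnb1FF and 14.6 CPM in Gli3FF. Gli2 had 6.26 to 15.7 CPM in Ctnnb1FF, a range that held both Gli2FF libraries. The 7 fibroblast markers (Pdgfra, Pdgfrb, Col1a1, Col1a2, Col3a1, Dcn and Lum) were above 1 CPM on average in every group and summed to 19360 to 56120 CPM per library. Of the 11 mesothelial markers all had a group mean above 1 CPM except in BDL and Gli3FF, where 7 did. In bulk libraries of this kind, fewer cells of a type and less RNA per cell cannot be told apart.

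Hox genes encode homeodomain transcription factors that give cells of the embryo their position along the head-to-tail axis. Within a cluster the genes lie in the order in which they are used: the low-numbered paralogs mark anterior levels and the high-numbered ones mark posterior levels, limb ends and the genital tract. Adult fibroblasts keep much of the Hox pattern of the place where they arose, so the set that is expressed is often read as a record of position. Pbx, Meis and Pknox proteins bind DNA together with Hox proteins, retinoic acid turns on anterior Hox genes in the embryo, and Polycomb and trithorax proteins keep clusters silent or active.

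The bile duct mesenchyme carried an anterior Hox code drawn from clusters A and B. In mm10 with GENCODE coordinates, cluster A spans chr6:52155590-52260880 and cluster B chr11:96194316-96368256, while cluster C spans chr15:102921103-103036852 and cluster D chr2:74668310-74765142. Of the 15 members of paralog groups 1 to 5, 10 reached 1 CPM in at least 15 of the 29 libraries. None of the 8 members of groups 6 to 8 and none of the 16 members of groups 9 to 13 did so. Among them were Hoxa2, Hoxa3, Hoxa4, Hoxa5, Hoxb2, Hoxb3, Hoxb4, Hoxb5 and Hoxc4. Hoxa2, Hoxa3 and Hoxb4 reached 1 CPM in every library, and Hoxa4, Hoxa5, Hoxb3 and Hoxb5 had at least 1 count in every library. At the other end, 16 of the 39 genes reached 1 CPM in no library.

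**Figure D1:**
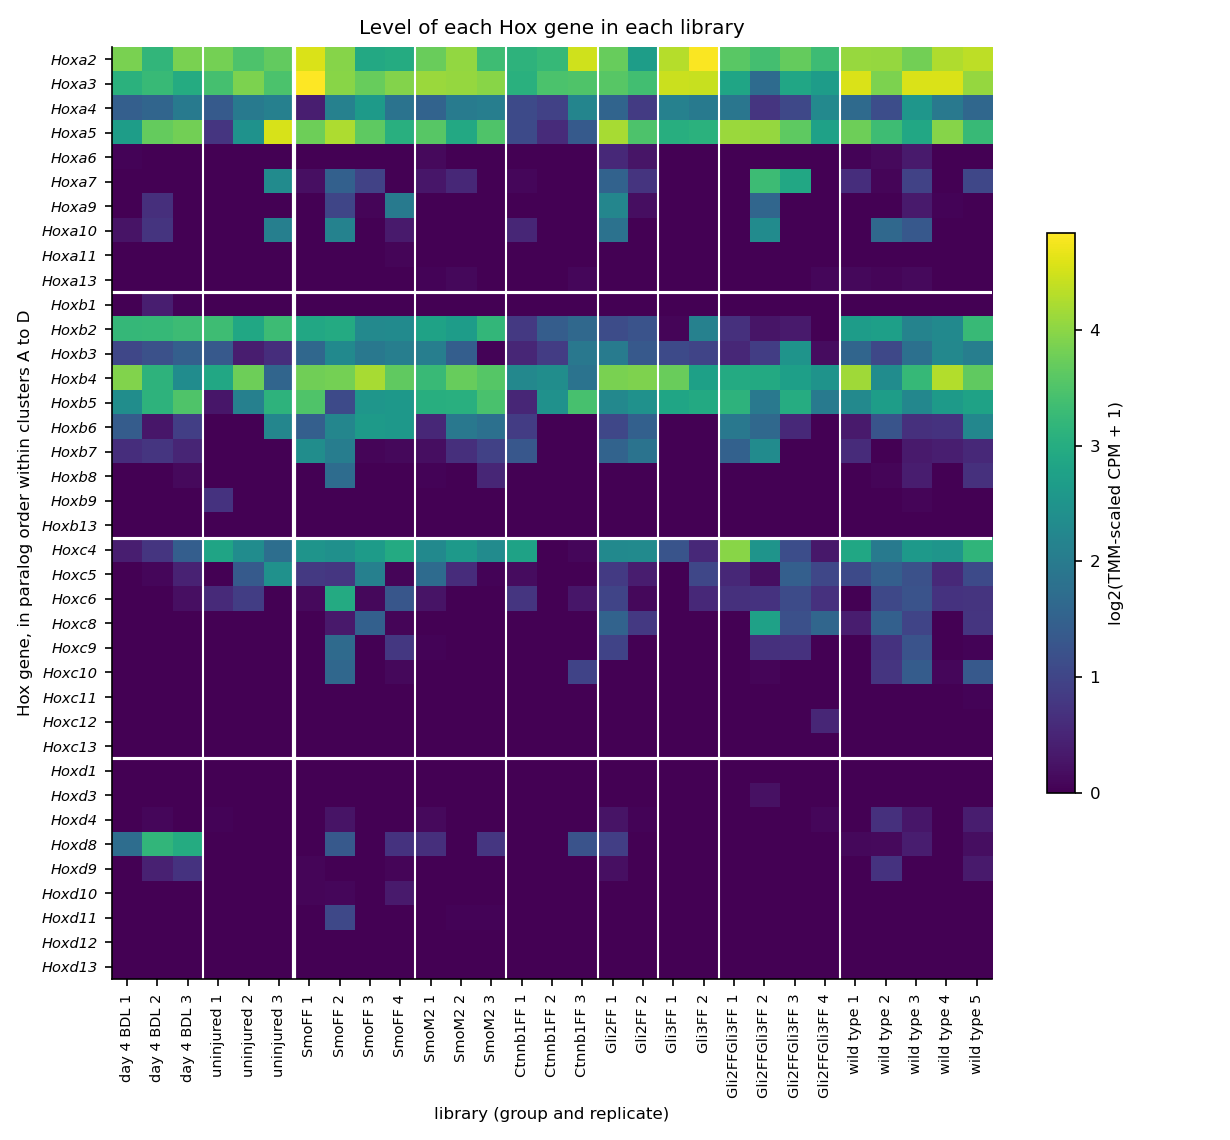
Level of 38 Hox genes (rows, grouped by cluster) in each of the 29 libraries (columns, grouped by condition), as log2(CPM + 1). Hoxa2, Hoxa3, Hoxa4, Hoxa5, Hoxb4 and Hoxb5 average at least 1 CPM in every group, whereas cluster D is nearly blank outside the BDL libraries.

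Cluster A contributed 57.7% ± 7.56 of all Hox CPM and cluster B 32.1% ± 7.16 (mean ± SD over 29 libraries). Cluster C gave 8.90% ± 5.62 and cluster D 1.34% ± 2.82. The summed level of paralog groups 1 to 5 was 66.2 ± 18 CPM and made up 90.5% ± 8.49 of all Hox CPM, against 5.55 ± 5.10 CPM for groups 6 to 8 and 1.68 ± 2.62 CPM for groups 9 to 13. The gradient from anterior to posterior was thus present in the pooled cells of most ducts, with the spread between libraries largest, relative to the mean, at the posterior end.

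Levels were compared between genes per kilobase of exon. In Pdgfra wild type cells, Hoxa2, a gene of hindbrain and second pharyngeal arch patterning, came first with 9.28 CPM per kb. Hoxa5, which acts in lung, diaphragm and foregut mesenchyme, followed with 5.48 CPM per kb, then Hoxb4, a regulator of blood progenitor growth, with 4.63 CPM per kb and Hoxa3, needed for thymus and parathyroid, with 3.25 CPM per kb. Hoxc4, Hoxb5, Hoxa4 and Hoxb2 lay between 1.54 and 2.11 CPM per kb, and Hoxb6 and Hoxb3 between 0.586 and 0.675 CPM per kb. The order of neighbours in this list depends on the length used: with the longest coding transcript instead of all exons, Hoxa3 ranked 2 and Hoxa5 ranked 3.

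**Figure D2:**
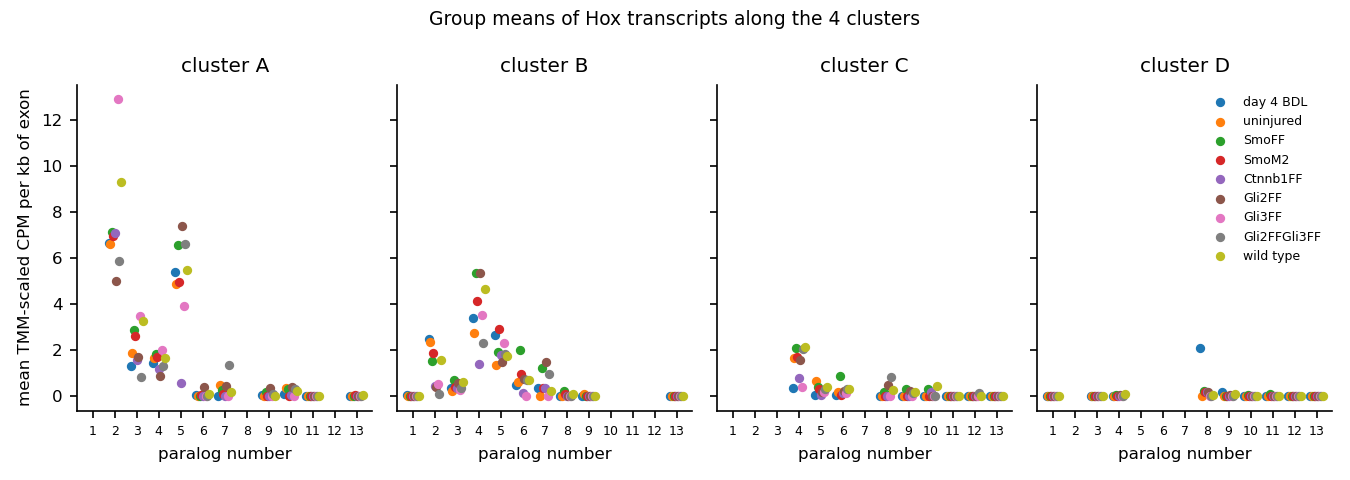
Group mean level in CPM per kilobase of exon (vertical axis) by paralog number (horizontal axis) in each of the 4 clusters, with 1 point per gene and group. Levels peak at paralogs 2 to 5 in clusters A and B in all groups and stay near 0 in cluster D except at Hoxd8 in BDL.

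The promoters of 22 of the 39 genes were found in the RefSeq table (GRCm38.p6, 250 bases before to 50 bases after the start). The windows of Hoxd8, Hoxa5 and Hoxb4 are shown because these genes gave the results on ligation and on Ctnnb1FF described further on. Capitals mark CTTTGA, a core of the site of TCF/LEF factors, the DNA-binding partners of beta-catenin, which was searched on both strands. Hoxd8 (chr2:74704365-74704664, plus strand), Hoxa5 (chr6:52204538-52204837, minus strand) and Hoxb4 (chr11:96318017-96318316, plus strand) read as follows.
Hoxd8: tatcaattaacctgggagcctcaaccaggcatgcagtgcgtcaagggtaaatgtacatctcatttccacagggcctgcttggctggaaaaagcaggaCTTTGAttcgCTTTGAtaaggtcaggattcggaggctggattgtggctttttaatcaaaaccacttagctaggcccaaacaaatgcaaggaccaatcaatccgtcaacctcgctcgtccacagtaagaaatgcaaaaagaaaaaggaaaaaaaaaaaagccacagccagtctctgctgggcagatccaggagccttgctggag
Hoxa5: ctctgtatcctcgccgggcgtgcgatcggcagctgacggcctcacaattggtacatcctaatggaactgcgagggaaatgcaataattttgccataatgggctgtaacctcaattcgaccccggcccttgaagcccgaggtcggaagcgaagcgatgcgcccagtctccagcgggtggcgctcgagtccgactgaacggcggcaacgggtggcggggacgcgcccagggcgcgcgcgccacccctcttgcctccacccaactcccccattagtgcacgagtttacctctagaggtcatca
Hoxb4: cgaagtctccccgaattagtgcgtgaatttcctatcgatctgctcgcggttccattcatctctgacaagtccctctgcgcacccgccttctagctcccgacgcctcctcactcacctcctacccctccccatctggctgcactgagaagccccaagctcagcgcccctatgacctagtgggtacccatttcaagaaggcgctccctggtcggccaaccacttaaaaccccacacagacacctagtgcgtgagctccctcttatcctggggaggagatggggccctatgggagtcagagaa

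Hoxd8 held CTTTGA at positions -153 and -143 from the start site, with 6 CpG dinucleotides and 46.7% G and C. Hoxa5 held 29 CpG and Hoxb4 14, and the letters CTTTGA were not in either window. The motif was in 16% of 32851 promoters and in 4 of the 24 Hox windows (Hoxa10, Hoxa11, Hoxd8 and Hoxd12). GACCACCCA, the site of Gli factors, was in 0.253% of all promoters and in none of the 24 Hox windows. The Hox-Pbx site TGATNNAT was in 8.85% of all promoters and in 4 Hox windows (Hoxa2, Hoxb1, Hoxb8 and Hoxd11). The retinoic acid response element with a gap of 5 was in 0.0548% of all promoters and in none of the Hox windows. Both strands were searched for each motif. A match is a description of the letters and was not tested as a binding site.

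The code was described group by group as the genes with a group mean of at least 1 CPM. There were 10 such genes in BDL, 13 in uninjured, 13 in SmoFF, 11 in SmoM2, 9 in Ctnnb1FF, 16 in Gli2FF, 9 in Gli3FF, 14 in Gli2FFGli3FF and 12 in wild type. Hoxa2, Hoxa3, Hoxa4, Hoxa5, Hoxb4 and Hoxb5 were above that level in each of the 9 groups, and 19 genes were above it in at least 1. In paralog groups 1 to 5 the number per group ran between 9 and 11, whereas in groups 6 to 13 it ran between 0 and 6. The anterior set was thus much the same size in every group, and the additions came from the middle and posterior genes. A group mean can rest on 1 library. In uninjured animals Hoxa7 and Hoxa10 had counts only in replicate 3, at 4.03 and 3.27 CPM. Hoxc4 had 5.90, 0 and 0.0564 CPM in Ctnnb1FF. The number of genes per group therefore depends on single libraries.

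Among the 10 widely expressed genes the fold between the highest and lowest group mean was smallest for Hoxb5, followed by Hoxa4 and Hoxa2. Hoxb5, known for a role in the enteric nervous system, ran between 3.77 CPM in uninjured and 8.10 CPM in SmoM2, a 2.15-fold range. Hoxa4 ran between 1.37 CPM in Gli2FF and 3.15 CPM in Gli3FF, a 2.30-fold range, and Hoxa2 between 8.82 CPM in Gli2FF and 22.9 CPM in Gli3FF, a 2.59-fold range. For these 3 genes in turn the SD of the group means on the log2 scale was 0.42, 0.26 and 0.39. Within groups the SD of the libraries was 0.83, 0.60 and 0.48. A mean of several libraries varies less than single libraries even where groups do not differ. The smaller SD of the means thus does not show that the groups were alike. For Hoxa3 and Hoxb2 the SD of the group means was the larger. The SD of the Hoxa3 group means was 0.63 against 0.35 within groups, and that of Hoxb2 was 1.08 against 0.46 within groups. Hoxa5 also ranged widely, at 0.87 between against 0.75 within groups.

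Hoxa2 had 13.6, 8.04 and 13.6 CPM in BDL and 13.1, 10.2 and 11.7 CPM in uninjured animals. It had 22.5, 14.6, 6.60 and 6.88 CPM in SmoFF, 12.3, 15.5 and 9.08 CPM in SmoM2, and 16.0, 15.8, 12.9, 18.2 and 19.4 CPM in wild type. Every library thus held a clear Hoxa2 level, and each of these groups overlapped the group it was set against. Hoxa2 was 8.82 ± 4.78 CPM in Gli2FF (n = 2) and 22.9 ± 5.89 CPM in Gli3FF (n = 2), the lowest and highest group means, against 16.5 ± 2.49 CPM in wild type (n = 5). Neither difference passed the test. Hoxa2 shares 15% of its exonic bases with another annotated gene on the same strand, so its counts may depend on how shared reads were assigned.

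Ligation was compared with no injury in the Gli1 animals. At day 4 no anterior Hox gene was called, and the genes called were Hoxd8, a trunk gene of cluster D, and Hoxb7. Of the 14 Hox genes that passed the filter on low counts, 2 were called by edgeR's quasi-likelihood test at an adjusted p (Benjamini-Hochberg over 17150 genes) under 0.05. Both rose, when 13.6% of all genes tested were called in either direction and 7.77% rose. Neither had a count in uninjured libraries, so both passed the filter through BDL alone, and their count and direction are given as a description. The median log2 fold change of the 14 genes was 0.03, against 0.07 over all genes tested.

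Hoxd8 (chr2:74704615-74707933, plus strand) had 2.32, 8.07 and 6.85 CPM in the 3 BDL libraries, which is 58, 250 and 230 counts, and no count in any of the 3 uninjured libraries. The groups did not overlap. Hoxd8 was at least 156-fold higher in BDL than the level of 3 counts over the uninjured group (adjusted p = 0.0178). In the 23 Pdgfra libraries it ran between 0 and 1.54 CPM, below each BDL library. The call rested on all 3 BDL libraries: leaving out any 1 of them gave an adjusted p of 0.0539, 0.106 or 0.0984.

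Hoxb7, another trunk gene, lay far lower. It had 0.560, 0.678 and 0.417 CPM in BDL, which is 14, 21 and 14 counts, and no count in uninjured libraries. It was at least 15-fold higher in BDL than the level of 3 counts over the uninjured group (adjusted p = 0.0246), but it was not called without the low-count filter (adjusted p = 0.110), and its adjusted p ran between 0.0486 and 0.109 when 1 library was left out. Pdgfra wild type libraries had 0 to 0.508 CPM of Hoxb7, so the BDL level was near that of wild type cells sorted with the other driver.

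Hoxc4, a gene of the neck and upper trunk, pointed the other way. It had 0.320, 0.678 and 1.73 CPM in BDL, against 6.12, 4.11 and 2.35 CPM in uninjured animals, and the groups did not overlap. Its log2 fold change of -2.23 (SE 0.88) missed the threshold (unadjusted p = 0.0406, adjusted p = 0.165). The other 11 tested genes had an unadjusted p of at least 0.05. Among them, Hoxa3 had 7.48, 8.58 and 6.91 CPM in BDL, against 9.67, 13.7 and 10.02 CPM in uninjured animals, and the groups did not overlap (log2 fold change -0.56, SE 0.36, adjusted p = 0.414). Hoxb2 had 8.31, 8.39 and 8.93 CPM in BDL and 9.10, 6.34 and 8.90 CPM in uninjured animals, and Hoxa5 had 5.44, 12 and 13 CPM in BDL and 0.680, 4.51 and 22.2 CPM in uninjured animals. For Hoxa5 the uninjured animals alone spanned more than the difference between the groups.

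**Figure D3:**
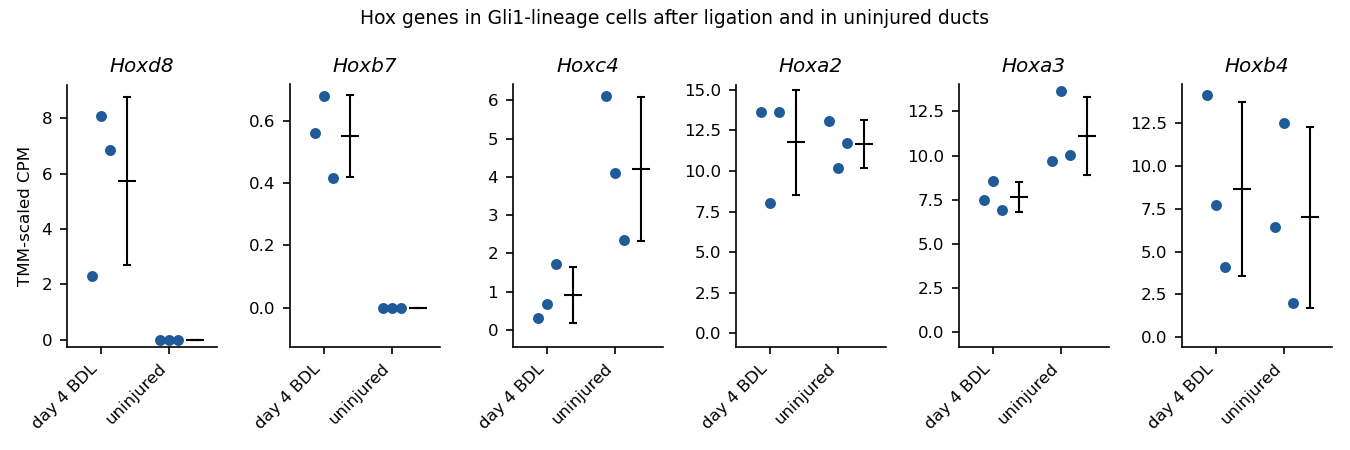
CPM of Hoxd8, Hoxb7, Hoxc4, Hoxa2, Hoxa3 and Hoxb4 in the 3 BDL libraries and the 3 uninjured libraries, with dots for libraries and bars for mean ± SD. Hoxd8 sits between 2.32 and 8.07 CPM in BDL and at 0 in uninjured libraries, while Hoxa2 and Hoxb4 overlap between the groups.

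Markers of several cell types differed without overlap after ligation. The 8 immune markers summed to 25.3 to 57.0 CPM in BDL and 6.68 to 19.5 CPM in uninjured libraries. The 6 pancreatic acinar markers summed to 4.23 to 8.87 CPM in BDL and 9.81 to 36.2 CPM in uninjured libraries. The 8 smooth muscle and pericyte markers summed to 976 to 1111 CPM in BDL and 33.1 to 76.3 CPM in uninjured libraries, and all 8 were above 1 CPM on average in BDL, against 4 in uninjured. The 11 mesothelial markers summed to 58.6 to 103 CPM in BDL and 332 to 1406 CPM in uninjured libraries, and none was at 0 in either group. The 7 fibroblast markers summed to 53850 to 56120 CPM in BDL and 26240 to 30860 CPM in uninjured libraries. The 5 hepatocyte markers summed to 1.04 to 11.8 CPM in BDL and 252 to 324 CPM in uninjured libraries. Of the 5, 1 averaged above 1 CPM in BDL and 2 in uninjured, and 2 were at 0 in uninjured. The part of these cells in the Hoxd8 and Hoxb7 results was not tested. Mtx2, the gene next to the low-number side of cluster D, was also called in BDL, with 56.8 ± 8.0 CPM against 32.0 ± 4.41 CPM in uninjured animals (n = 3 each, adjusted p = 0.041).

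Among the comparisons with wild type, Ctnnb1FF gave the most Hox calls, all of them anterior genes. In Ctnnb1FF, Hoxa5, Hoxb4 and Hoxa3 fell, 3 of the 22 Hox genes tested among the Pdgfra animals, when 19.9% of all 24383 genes tested were called in either direction and 11.9% fell. The share of Hox genes called was near that background. Of the 22, 20 had a negative log2 fold change, with a median of -1.92, against -0.61 over all genes tested. In Gli3FF 17 of 22 were negative, with a median of -2.14 against -0.22 over all genes tested, and in SmoM2 against SmoFF 19 of 22 were negative, with a median of -0.65 against 0 over all genes tested. Genes with no count in a group have fitted values that depend on the fit's prior count. With those genes at the limit of 3 counts over the group, the medians were -1.68 in Ctnnb1FF (4 such genes) and -1.46 in Gli3FF (10 such genes). The 3 Ctnnb1FF libraries were poorer in genes, with 15892 to 17726 genes having a count, and their mesothelial markers summed to 37.0 to 464 CPM, against 168 to 494 CPM in wild type. The part of either in the result was not tested.

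Hoxa5 (chr6:52201754-52204587, minus strand) had 1.12, 0.503 and 1.58 CPM in Ctnnb1FF, against 12.6, 9.11, 6.49, 14.5 and 8.62 CPM in wild type. Each Ctnnb1FF library was below every wild type library, and the means were 1.07 ± 0.540 CPM and 10.3 ± 3.25 CPM (SD, n = 3 and 5). The log2 fold change was -3.39 (SE 0.51, adjusted p = 5.44e-05). Hoxa5 shares no exonic base with another annotated gene, and its call held whichever library was left out, with adjusted p between 7.9e-05 and 0.000789.

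Hoxb4 (chr11:96318267-96321638, plus strand) had 3.79, 4.21 and 2.60 CPM in Ctnnb1FF, against 16.8, 4.08, 8.43, 18.5 and 11.6 CPM in wild type. Wild type replicate 2 lay inside the Ctnnb1FF range, so the groups overlapped. The log2 fold change was -1.88 (SE 0.44, adjusted p = 0.00388). Hoxa3 had 7.39, 10.1 and 10.3 CPM in Ctnnb1FF, against 22.5, 13.8, 22.8, 22.7 and 15.8 CPM in wild type, with no overlap (log2 fold change -1.20, SE 0.35, adjusted p = 0.0188). The Hoxa3 call was the weakest, and leaving out any 1 Ctnnb1FF library gave an adjusted p of 0.116, 0.0691 or 0.0590.

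The other anterior genes did not pass the test in Ctnnb1FF. Hoxb2 averaged 1.51 ± 0.690 CPM in Ctnnb1FF and 5.37 ± 1.99 CPM in wild type (log2 fold change -1.96, SE 0.92, adjusted p = 0.125). Hoxa2 averaged 12.5 ± 7.66 CPM in Ctnnb1FF and 16.5 ± 2.49 CPM in wild type, and Hoxb5 4.90 ± 4.71 CPM in Ctnnb1FF and 4.83 ± 0.992 CPM in wild type. Hoxc4 was split, with 5.90, 0 and 0.0564 CPM in Ctnnb1FF against 2.96 to 8.0 CPM in wild type.

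RNAs transcribed from the opposite strand of the clusters were counted too. Hoxb5os, which runs antisense beside Hoxb5, averaged 4.18 ± 2.01 CPM in Ctnnb1FF and 0.316 ± 0.303 CPM in wild type. It was not called. The counting was not stated to use strand, so reads from a gene and an antisense partner that share bases cannot be told apart. Such sharing covers 25.4% of the exonic bases of Hoxa3, 27.3% of Hoxb2, 52.9% of Hoxb3 and 16.0% of Hoxa4, and none of Hoxa5, Hoxb4, Hoxb7, Hoxc4, Hoxc8 or Hoxd8.

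In Gli2FFGli3FF, Hoxa3 and Hoxb2 fell, 2 of 22 tested, when 17.2% of all genes tested were called in either direction and 9.56% fell. The share of Hox genes called was thus no higher than the background, and the median log2 fold change of the 22 was -0.34, against -0.35 over all genes tested. Gli2FFGli3FF libraries also stood apart in quality: the ribosomal RNA locus took 38.35% to 50.03% of counts in Gli2FFGli3FF and 13.41% to 29.37% in wild type, and 17508 to 20055 genes had a count in Gli2FFGli3FF, against 21127 to 24483 in wild type. The part of this in the result was not tested. Hoxa3 (chr6:52169062-52213336, minus strand) had 6.22, 2.22, 6.25 and 5.42 CPM in Gli2FFGli3FF, against 13.8 to 22.8 CPM in wild type. The means were 5.02 ± 1.91 CPM and 19.5 ± 4.37 CPM (n = 4 and 5), with no overlap (log2 fold change -2.03, SE 0.33, adjusted p = 0.000158). Hoxb2 (chr11:96350525-96354012, plus strand), a hindbrain gene, had 0.592, 0.209, 0.269 and 0 CPM in Gli2FFGli3FF, against 5.35, 5.61, 3.47, 3.89 and 8.52 CPM in wild type. Every Gli2FFGli3FF library was below 1 CPM and every wild type library above 3 CPM (log2 fold change -4.41, SE 0.94, adjusted p = 0.00241). Both calls held whichever library was left out, with adjusted p up to 0.0011 for Hoxa3 and up to 0.0126 for Hoxb2.

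Hoxb4 just missed the threshold in Gli2FFGli3FF, with 6.81, 6.62, 5.64 and 4.62 CPM against 4.08 to 18.5 CPM in wild type, inside the wild type range (log2 fold change -1.08, SE 0.38, adjusted p = 0.0514). Hoxa5 did not follow: it averaged 12.4 ± 4.85 CPM in Gli2FFGli3FF and 10.3 ± 3.25 CPM in wild type (log2 fold change 0.19, SE 0.39). Hoxa3 and Hoxb2 both share bases with antisense genes. Of these, Hoxaas2 had 7.48 ± 4.09 CPM in Gli2FFGli3FF and 7.38 ± 4.03 CPM in wild type, and Hoxb3os 1.85 ± 1.61 CPM in Gli2FFGli3FF and 1.85 ± 0.579 CPM in wild type. The smooth muscle and pericyte markers summed to 136 to 247 CPM in Gli2FFGli3FF and 67.3 to 132 CPM in wild type, and the mesothelial markers to 383 to 982 CPM in Gli2FFGli3FF and 168 to 494 CPM in wild type. Their part in the result was not tested.

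Neither Gli2FF nor Gli3FF gave a Hox call by edgeR. For Gli2FF, 0 of 22 were called by edgeR when 5.84% of all genes were, and 2 had an unadjusted p under 0.05 (Hoxa9 with a higher and Hoxa3 with a lower value). DESeq2 called 0 and limma voom 1, Hoxa3. Over all genes tested in Gli2FF, 20% had an unadjusted p under 0.05, DESeq2 called 10.9% and limma voom 23.5%. Hoxa3 had 11 and 9.34 CPM in Gli2FF and Hoxb2 had 1.19 and 1.37 CPM, below every wild type library in both cases. For Gli3FF, 0 of 22 were called when 4.45% of all genes were, and 4 had an unadjusted p under 0.05, each lower: Hoxa7, Hoxb6, Hoxc8 and Hoxc10. DESeq2 called 2 (Hoxa10 and Hoxb6) and limma voom 0. Over all genes tested in Gli3FF, 18.6% had an unadjusted p under 0.05, DESeq2 called 9.73% and limma voom 5.3%. Hoxa3 had 20.8 and 20.7 CPM in Gli3FF, inside the wild type range. Hoxb2 had 0.0446 and 3.38 CPM in Gli3FF, and both values were below the wild type range. The 5 hepatocyte markers summed to 791 to 956 CPM in Gli3FF and 54.4 to 157 CPM in wild type. Of the 5, 1 averaged above 1 CPM in Gli3FF and 1 in wild type, and 2 were at 0 in Gli3FF. Their part was not tested. With 2 libraries each, a difference between the single and the joint loss was not tested.

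**Figure D4:**
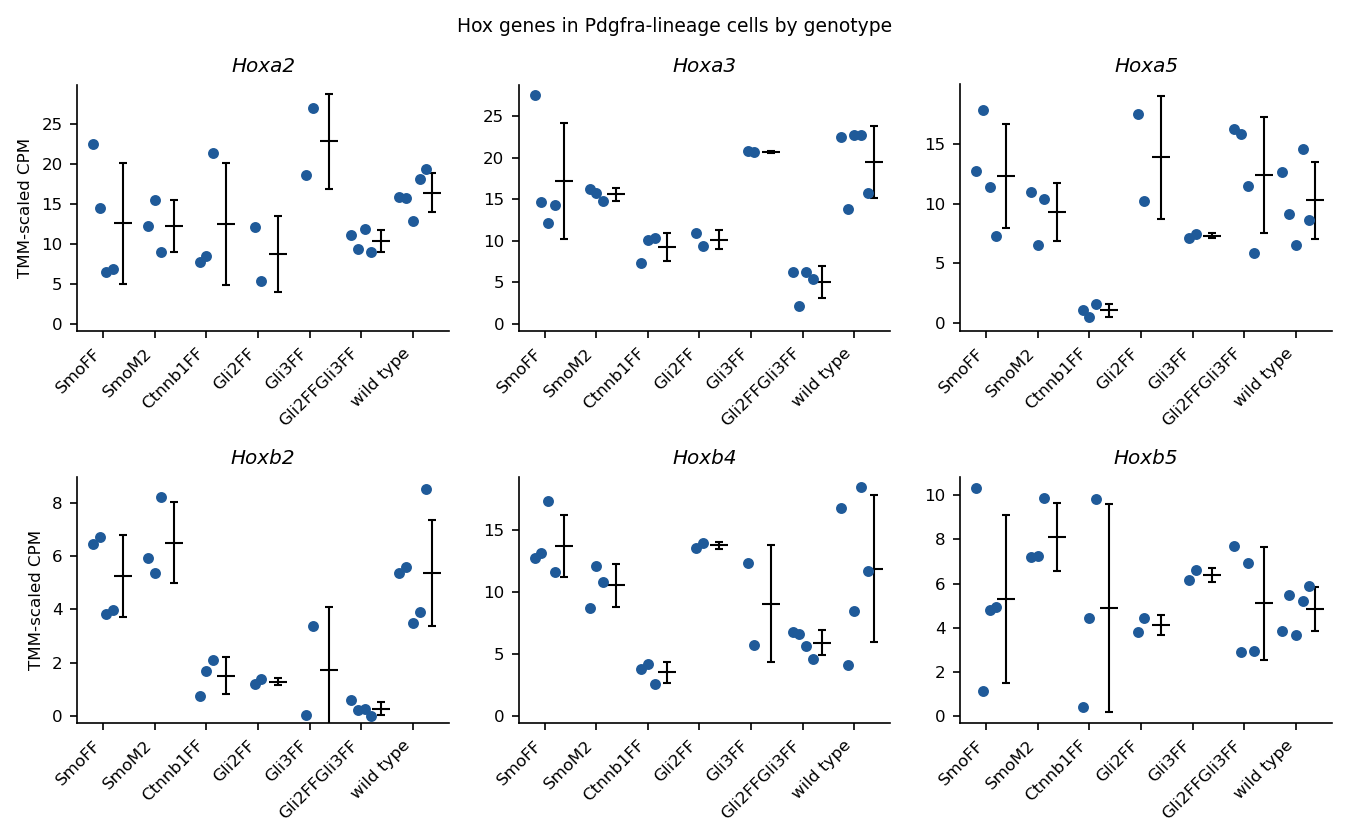
CPM of Hoxa2, Hoxa3, Hoxa5, Hoxb2, Hoxb4 and Hoxb5 over the 7 Pdgfra groups, with dots for libraries and bars for mean ± SD. Hoxa5 is near 1 CPM in the 3 Ctnnb1FF libraries, Hoxa3 and Hoxb2 are low in the 4 Gli2FFGli3FF libraries, and Hoxa2 and Hoxb5 are present in every group.

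Changes in Smo gave no Hox call. For SmoFF against wild type edgeR called 0 of 22 when 1.55% of all genes were called, with 0 at an unadjusted p under 0.05, 0 by DESeq2 and 0 by limma voom. For SmoM2 against wild type it called 0 when 0.205% of all genes were called, with 2 at an unadjusted p under 0.05 (Hoxc8 and Hoxc10, both lower), 1 by DESeq2 (Hoxa10) and 1 by limma voom (Hoxc8). For SmoM2 against SmoFF it called 0 when 2.63% of all genes were called, with 4 lower at an unadjusted p under 0.05. DESeq2 called 1 there (Hoxa10) and limma voom 0. Over all genes tested, 14.9% had an unadjusted p under 0.05 in SmoFF, 7.64% in SmoM2 and 15.3% in SmoM2 against SmoFF. In the same order, DESeq2 called 4.53%, 1.13% and 6.24% of all genes, and limma voom 1.78%, 5.97% and 6.67%. Ptch1, a direct Hedgehog target, had 264 to 414 CPM in SmoM2 and 21.6 to 38.8 CPM in wild type. In SmoFF it had 26.1 to 35.2 CPM, inside the wild type range. No fall in Hedgehog output was thus seen at this gene, so the SmoFF result does not show how Hox genes respond to one. Hoxa3 averaged 15.6 ± 0.733 CPM in SmoM2, 17.2 ± 7.01 CPM in SmoFF and 19.5 ± 4.37 CPM in wild type. Hoxb2 averaged 6.50 ± 1.51 CPM in SmoM2, 5.25 ± 1.56 CPM in SmoFF and 5.37 ± 1.99 CPM in wild type.

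A single test over the 6 genotypes against wild type called 5 of the 22 Hox genes, when 32.8% of all genes tested were called. These were Hoxa5 (adjusted p = 0.00049), Hoxa3 (adjusted p = 0.000759), Hoxb4 (adjusted p = 0.00864), Hoxb2 (adjusted p = 0.00919) and Hoxc8 (adjusted p = 0.0275). Hoxc8, a gene of brachial motor neurons, had no count in SmoM2, Ctnnb1FF or Gli3FF libraries, 0, 5.82, 1.28 and 2.03 CPM in Gli2FFGli3FF, and 0.312, 1.79, 0.992, 0 and 0.687 CPM in wild type. Without Gli2FFGli3FF replicate 2 its adjusted p was 0.0531. The other 17 Hox genes tested were not called, among them Hoxa2, Hoxa4, Hoxb3, Hoxb5 and Hoxc4 of the anterior set.

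The driver lines were set side by side in Gli1 uninjured and Pdgfra wild type cells, though the Pdgfra titles carry no injury label. Gli1 uninjured against Pdgfra wild type gave 0 Hox calls of 17 tested by edgeR when 5.82% of all genes tested were called. An unadjusted p under 0.05 was seen for 4, each lower (Hoxa2, Hoxa3, Hoxc8 and Hoxc10), and for 21.1% of all genes tested. DESeq2 called 3 (Hoxa3, Hoxc8 and Hoxc10) and 13.9% of all genes tested. Limma voom called 0 and 2.62% of all genes tested. Hoxa3 had 9.67, 13.7 and 10.02 CPM in Gli1 uninjured, against 13.8 to 22.8 CPM in Pdgfra wild type. Hoxa2 had 10.2 to 13.1 CPM in Gli1 uninjured and 12.9 to 19.4 CPM in Pdgfra wild type. The driver and the count table cannot be told apart here.

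The middle and posterior genes varied widely between animals of a group. The summed level of paralogs 6 to 13 was 4.76 to 10.6 CPM in BDL and 0.835 to 10.9 CPM in uninjured libraries. It was 6.26 to 29.2 CPM in SmoFF, 1.75 to 4.50 CPM in SmoM2, 0 to 3.48 CPM in Ctnnb1FF, 6.19 to 16.3 CPM in Gli2FF, 0 to 0.478 CPM in Gli3FF, 3.14 to 28.2 CPM in Gli2FFGli3FF and 1.68 to 10.01 CPM in wild type. SmoFF replicate 2 and Gli2FFGli3FF replicate 2 were the 2 highest libraries. SmoFF replicate 2 expressed 11 genes of paralogs 6 to 13 at 1 CPM or more, and these paralogs made up 26.0% of its Hox CPM. In Gli2FFGli3FF replicate 2 they made up 39.2%, with Hoxa7 at 8.97 CPM and Hoxc8 at 5.82 CPM.

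Some of these genes were at or near 0 in some animals and well above 1 CPM in others, within a group or between groups. Hoxa7, a thoracic gene, had 0, 8.97, 6.45 and 0 CPM in Gli2FFGli3FF and 0 to 1.03 CPM in wild type. Hoxc6, another thoracic gene, had 0.0935, 6.73, 0.0815 and 1.45 CPM in SmoFF and 0 to 1.35 CPM in wild type. Hoxb6 had 1.78, 3.65, 5.21 and 4.95 CPM in SmoFF, 0 and 0 CPM in Gli3FF, and 0.273 to 3.74 CPM in wild type. Of the 24 genes of paralogs 6 to 13, 12 reached 1 CPM in no library.

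**Figure D5:**
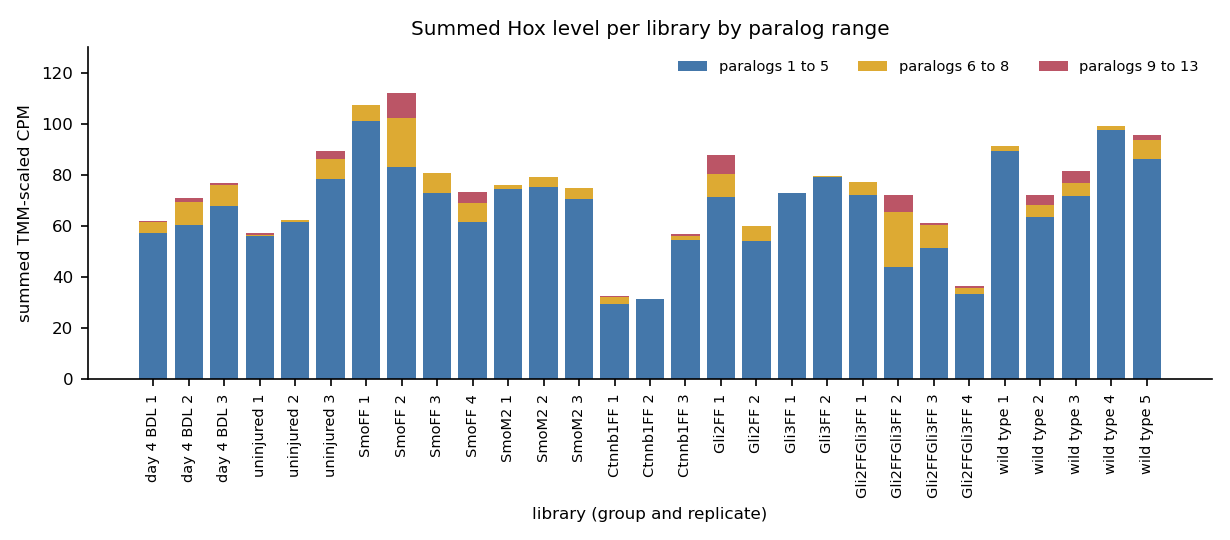
Summed CPM of Hox paralogs 1 to 5, 6 to 8 and 9 to 13 in each of the 29 libraries, as stacked bars from 0. Paralogs 1 to 5 sum to 29.2 to 101 CPM in every library, and SmoFF replicate 2 and Gli2FFGli3FF replicate 2 have the tallest segments of paralogs 6 to 8.

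Mesothelial markers moved with these genes in some groups and not in others. SmoFF replicate 2 had the highest mesothelial sum of the 29 libraries, 1981 CPM, and the Gli3FF libraries, with 61.7 to 97.0 CPM, were among the lowest and had 2 of the 11 mesothelial markers at 0. Gli2FFGli3FF replicate 2 had 773 CPM, within its group's range of 383 to 982 CPM. The BDL libraries went the other way, with mesothelial sums of 58.6 to 103 CPM and 4.76 to 10.6 CPM of paralogs 6 to 13. Uninjured replicates 1, 2 and 3 had mesothelial sums of 895, 332 and 1406 CPM and 1.13, 0.835 and 10.9 CPM of paralogs 6 to 13, so both measures ranked them alike. The part of mesothelial cells in the posterior Hox levels was not tested.

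Most genes of paralog groups 11 to 13, and the anterior Hoxd1, were not detectable or nearly so at this depth. Hoxb13, Hoxc13, Hoxd1, Hoxd12 and Hoxd13 had no count in any of the 29 libraries, which allows a mean level of up to 0.00419 CPM (3 counts over all libraries, counting error only). Hoxa13 had 10 counts, in 7 libraries, Hoxa11 1 and Hoxc11 1. Hoxd13 and Hoxa13 pattern digits, hindgut and genital tract, and Hoxa11 and Hoxc11 the limb and urogenital tract. Cluster D stood apart even at its anterior end: Hoxd3 had 4 counts and Hoxd4 45 counts over the 29 libraries, whereas Hoxa3 had 9666, Hoxb3 1344 and Hoxc4 2748. Of the 9 cluster D genes, 7 reached 1 CPM in no library, the exceptions being Hoxd8 and Hoxd11.

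The DNA-binding partners of Hox proteins were counted as a list of 9, of which Pbx4 was the lowest, with group means between 0 and 2.53 CPM. Meis1, a partner of Hox and Pbx proteins, had group means between 45.4 and 109 CPM. Pknox1 fell in BDL (11.9 ± 2.84 CPM against 38.1 ± 9.31 CPM in uninjured, adjusted p = 0.0211), the single call among the 9 partners there, when 13.6% of all genes tested were called. In Ctnnb1FF, where 19.9% of all genes tested were called, 3 of the 9 fell: Pbx2 (2.65 ± 1.66 CPM against 11.1 ± 2.27 CPM in wild type), Meis2 (26.2 ± 5.66 CPM against 46.7 ± 10.3 CPM in wild type) and Pknox1 (10.2 ± 3.44 CPM against 20.6 ± 4.74 CPM in wild type). In Gli3FF Meis2 fell (22.7 ± 3.88 CPM against 46.7 ± 10.3 CPM in wild type, adjusted p = 0.0272), as did Pbx2 (adjusted p = 0.0498), when 4.45% of all genes tested were called. Meis2 rose in Gli2FF (5.84% of all genes called), Meis3 and Pbx4 fell in Gli2FFGli3FF (17.2% called), and Pknox2 rose in SmoM2 against SmoFF (2.63% called). None was called in SmoFF or in SmoM2 against wild type.

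Of 21 tested Polycomb, trithorax and related genes, which hold clusters on or off, 2 rose in BDL, a smaller share than the 13.6% of all genes called there. Ezh2, a Polycomb methyltransferase (20.2 ± 4.28 CPM against 3.52 ± 1.77 CPM in uninjured, adjusted p = 0.0268), was among them. In Ctnnb1FF 5 of 21 fell, near the 19.9% of all genes called, among them Kdm6b, a demethylase that counters Polycomb (16.4 ± 9.91 CPM against 58.9 ± 6.88 CPM in wild type, adjusted p = 0.000493), and Cbx7, a Polycomb subunit (1.62 ± 1.66 CPM against 13.4 ± 2.40 CPM in wild type, adjusted p = 0.00665). In Gli2FF 4 rose, when 5.84% of all genes were called, and in Gli2FFGli3FF 3 rose and 4 fell, when 17.2% were called, with Bmi1 higher in Gli2FFGli3FF (30.2 ± 11.2 CPM against 5.86 ± 1.37 CPM in wild type). None was called in SmoFF, SmoM2 or Gli3FF against wild type, nor in SmoM2 against SmoFF.

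Of 17 retinoic acid genes tested in BDL, 4 rose, 2 fell and 11 were not called, when 13.6% of all genes tested were called, and their median log2 fold change was 0.25. Crabp1, Crabp2 and Cyp26c1, 3 of the 4 that rose, had no count in uninjured libraries and passed the low-count filter through BDL alone. Cyp26a1, which degrades retinoic acid, had 420 ± 101 CPM in BDL and 1.70 ± 1.90 CPM in uninjured animals (n = 3 each, log2 fold change 7.96, SE 1.26, adjusted p = 0.0134). Crabp1 and Crabp2, which bind retinoic acid in the cytoplasm, averaged 10.6 and 6.88 CPM in BDL. Dhrs3, which turns retinaldehyde back to retinol, fell (58.8 ± 18 CPM in BDL against 173 ± 41.8 CPM in uninjured). In the Pdgfra animals 4 rose and 4 fell in Ctnnb1FF (19.9% of all genes called), 1 rose and 1 fell in Gli2FF (5.84% called), 2 rose and 2 fell in Gli3FF (4.45% called), and 4 rose and 2 fell in Gli2FFGli3FF (17.2% called). Crabp1, which was among those that rose in Ctnnb1FF and in Gli3FF, had no count in wild type. Stra6, which was among those that fell in Ctnnb1FF, had no count in Ctnnb1FF. Dhrs3 fell in SmoFF, the single call there, and none was called in SmoM2 against wild type or against SmoFF.

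Other transcription factors of regional identity were also called. Of 30 tested, 7 rose and 4 fell in BDL, when 13.6% of all genes tested were called, among them Hand2, a gene of heart and lateral mesoderm (83.9 ± 4.65 CPM in BDL against 19.4 ± 6.61 CPM in uninjured, adjusted p = 0.00901), and Osr1, a gene of intermediate mesoderm and connective tissue (38.8 ± 22.4 CPM in BDL against 257 ± 47.0 CPM in uninjured, adjusted p = 0.0154). Emx2, 1 of the 7 that rose, had no count in uninjured libraries and passed the low-count filter through BDL alone. Among the Pdgfra groups 34 were tested. Of these, 1 fell in SmoM2 (0.205% of all genes called), 3 rose and 2 fell in Ctnnb1FF (19.9% called), 1 rose and 1 fell in Gli2FF (5.84% called), 4 rose and 2 fell in Gli3FF (4.45% called), and none was called in SmoFF. In Gli2FFGli3FF 2 rose and 2 fell, a smaller share than the 17.2% of all genes called. Osr1 fell in each of those groups but SmoFF, with 93.1 ± 10.6 CPM in SmoM2 and 62.0 ± 5.16 CPM in Gli3FF against 210 ± 30.5 CPM in wild type. In SmoM2 against SmoFF 2 rose and 1 fell (2.63% of all genes called). A last list held genes that flank the Hox clusters and noncoding genes inside them, together called flanking genes here. They gave 2 calls of 13 tested in BDL (Hnrnpa1 and Mtx2, both higher), near the 13.6% of all genes called. They gave 1 of 16 in Ctnnb1FF (Calcoco1, lower; 19.9% of all genes called) and 3 of 16 in Gli2FFGli3FF (17.2% called), and none in SmoFF, SmoM2, Gli2FF or Gli3FF against wild type or in SmoM2 against SmoFF. Between Gli1 uninjured and Pdgfra wild type, 0 of 9 partners, 3 of 21 chromatin regulators (1 higher, 2 lower), 3 of 15 retinoic acid genes (all lower), 0 of 30 regional factors and 1 of 14 flanking genes (lower) were called, when 5.82% of all genes tested were. Over any Pdgfra genotype, where 32.8% of all genes tested were called, the calls were 6 of 9 partners, 12 of 21 chromatin regulators, 8 of 17 retinoic acid genes, 13 of 34 regional factors and 3 of 16 flanking genes.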

How the data were processed

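The deposited values were whole-number gene counts, which the authors made per library and supplied as 8 tables, 1 for the Gli1 animals and 1 for each Pdgfra group. Per the submitters' processing notes, reads had been placed on mm10. The counter, aligner, annotation and use of strand were not given in the sources used here. Each of the 29 libraries came from 1 animal, per the labels, and no library was pooled. Counts ran between 15021796 and 38301189 per library, and 3 counts were taken as the detection limit, which covers counting error only.

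Tests were quasi-likelihood F tests (edgeR 4.0.16, R 4.3.3) after filterByExpr and TMM, with Benjamini-Hochberg adjustment over all genes tested and a threshold of 0.05. There were 3 fits: the 6 Gli1 libraries, the 23 Pdgfra libraries together, and Gli1 uninjured with Pdgfra wild type. Printed levels are CPM with TMM factors over all 29 libraries, and a gene was called expressed at 1 CPM. DESeq2 1.42.0, limma voom (limma 3.58.1), other scalings and filters, and leaving out each library were the alternatives. The scripts were tested on simulated data. Coordinates and exon overlaps came from GENCODE on mm10, and promoters from RefSeq (GRCm38.p6).

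All genes with a cluster Hox symbol were counted and could be named, the targeted genes as a check of the labels, and at most 4 called genes per context list (Hox cofactors, chromatin regulators, retinoic acid genes, regional transcription factors, cluster neighbours) in each comparison. Some results for single genes are not reported here. The members and the lists were chosen with earlier results of these data known. Of the cluster neighbours, a list that includes noncoding genes inside the clusters, 27 of 29 were in the tables. The replicate numbers did not pair samples: same-numbered libraries had deviations correlated between -0.04 and -0.02 over 3 pairs of Gli1 libraries, and between -0.28 and 0.17 over 55 pairs of Pdgfra libraries. No 2 libraries of a group agreed within sampling noise.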

Additional observations from a re-analysis of the deposited data

Results flagged for a closer look

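Of 39 sets of values examined, 4 held a library far from the others of its group, and chance alone gives about 1 in 20. Each set came from a group of 4 or 5 libraries (SmoFF, Gli2FFGli3FF or wild type), and groups of 2 or 3 were not examined. Hoxb3 was at 4.64 CPM in Gli2FFGli3FF replicate 3, against 0.123 to 0.838 CPM in the other 3. Hoxa3 was at 27.6 CPM in SmoFF replicate 1, against 12.2 to 14.7 CPM in the other 3. The summed level of paralogs 6 to 8 was 19.4 CPM in SmoFF replicate 2, against 6.17 to 8.07 CPM in the other 3. The summed level of paralogs 9 to 13 was 6.70 CPM in Gli2FFGli3FF replicate 2, against 0 to 0.605 CPM in the other 3.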

How the results depend on the processing

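The count of Hox genes called after ligation was 2, and it was 1 with DESeq2, 1 without a filter, 1 with all 29 libraries in one fit, 0 with the replicate block and 0 to 2 when 1 library was left out. The pairing of replicate numbers was not borne out, so the block is given here only: it moved Hoxd8 to an adjusted p of 0.129 and Hoxb7 to 0.229. For Hoxb7 the adjusted p was 0.124 with DESeq2, 0.110 without a filter and 0.0946 in one fit of all libraries. For Ctnnb1FF the count of 3 became 6 with DESeq2 and 2 to 5 with a library left out, and Hoxa3 had adjusted p of 0.0631 without a filter and Hoxb4 0.0633 with limma voom. For Gli2FFGli3FF the count of 2 was 2 to 3 with a library left out. Counts of 0 became 1 for SmoM2 with DESeq2 and with limma voom, 1 for Gli2FF with limma voom and with only the groups compared in the fit (Hoxb2), 2 for Gli3FF with DESeq2 and 1 without a filter (Hoxb6), 1 for SmoM2 against SmoFF with DESeq2, and 3 for Gli1 uninjured against Pdgfra wild type with DESeq2. Leaving out a library gave 0 to 1 for Gli3FF and 0 for the other comparisons with no call. The test over any genotype called 12 without a filter, against 5 with it, and gave 5 to 7 with a library left out. The share of all genes called also shifted: with DESeq2 it was 27.8% in Ctnnb1FF and 13.9% in Gli1 uninjured against Pdgfra wild type. The cause of these shifts was not tested. The genes at 1 CPM in every library were 3, with 4 at 0.5 CPM (Hoxa5 added) and 2 at 2 CPM. No fold change of a called gene reversed: 267 values kept their call and 20 lost it. Across scalings the median log2 fold change of all genes in Ctnnb1FF was -0.61 with TMM, -0.56 with RLE and -0.46 with upper quartile scaling. Genes under about 1 CPM rest on few counts from about 1000 cells, and their presence or absence in a library is limited by depth.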
